A study of Mus musculus with 48 samples.

Results

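How the response of hippocampal microglia to irradiation changed between 6 h and 1 day was measured for every gene as a difference of differences. The value, called the shift here, is irradiated minus sham at 1 day minus irradiated minus sham at 6 h. A positive shift means a higher effect at 1 day than at 6 h, and a negative shift a lower one. For a gene that irradiation raised, a negative shift is a response that faded. For a gene that it lowered, a negative shift is a deeper loss and a positive shift a return towards sham. The comparison used 24 of the 48 libraries of the series, and the other 24 entered the fit only through the shared estimate of the spread. Of the 48526 genes in the table, 10132 passed the filter on low values and were tested. All mice were C57BL/6 and were treated on postnatal day 21, either with a single 8 Gy dose to the whole brain or with a sham procedure. The 4 groups were sham 6 h, irradiated 6 h, sham 1 day and irradiated 1 day, each with 6 animals and 1 library per animal, and each time had sham animals of its own. Mice were perfused, the hippocampus was taken, and cells were dissociated enzymatically and sorted on Cx3cr1, a chemokine receptor that microglia express strongly; the labels do not say by which reagent or reporter. RNA of the sorted pool was sequenced in bulk, so fewer cells of a type and less RNA per cell cannot be told apart.

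Microglia are the resident macrophages of the brain. DNA breaks made by ionising radiation stabilise the transcription factor p53, which switches on genes of cell cycle arrest, cell death and stress signalling. Macrophages that take up debris raise genes of lysosomes and lipid handling. Cells under secretory load raise chaperones of the endoplasmic reticulum (ER), a set of genes controlled by the unfolded protein response.

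Levels are given as RPKM, reads scaled to gene span and to the library's reads on genes, recomputed from recovered whole reads. RPM is the same without the span. Because the span includes introns, levels are not compared between genes. Differences are on the log2(RPKM + 1) scale with the standard error after ±, a scale that understates the change of genes with low levels, and for a gene at 0 in a group the fitted difference depends on the added 1 and is no bound. Adjusted p values are from limma, Benjamini-Hochberg over 10132 genes, and a gene is called when its value is under 0.05. Where 3 levels are given for a group they are the lowest, the median and the highest of its 6 libraries. The labels do not say whether the libraries keep the strand, so genes that share positions with another gene, 35 of the 111 named here, have uncertain values. For 14 of these the other gene is neither predicted nor a small RNA, as with Ctsb and Fdft1, Sulf2 and Ncoa3, Glipr1 and Krr1, Pdia6 and Atp6v1c2, Manf and Rbm15b, Ddit3 and Mars, and Cx3cr1 and Wdr48.

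The libraries were not alike within groups. Sham 6 h libraries 1 to 4 stood apart from all the others on the first principal component, with 16.8% of the variance, at scores of -61.5 to -49.5, while sham 6 h libraries 5 and 6 were at -2.27 and 1.41 and the other 18 between 0.20 and 31.8. Sham 1 day library 6 stood apart on the second component, with 11.7% of the variance, at -76.8 against -28.8 to 27.0 for the rest. That library had 175382 reads on genes, and the other 23 had 731819 to 3298739. Mitochondrial reads made up 5.88% to 7.11% of reads in sham 6 h libraries 1 to 4 and 3.09% and 3.27% in libraries 5 and 6. The plot of these components shows both splits. Irradiated 1 day libraries 1 to 3 scored 21.9 to 31.8 on the first component and libraries 4 to 6 scored 16.7 to 20.5. Levels of Ptgs1, Selplg, Ctsb, Ctsc and Abca1, picked after their values were seen, also separated these libraries, and the cause was not tested. The shift was therefore also fitted with sham 6 h libraries 5 and 6 as the only 6 h sham, and without sham 1 day library 6. The fit with libraries 5 and 6 rests on fewer 6 h sham libraries, so a gene can lose its call there without a smaller shift. Genes called in the same direction in all 3 fits lead the account.

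**Figure D1:**
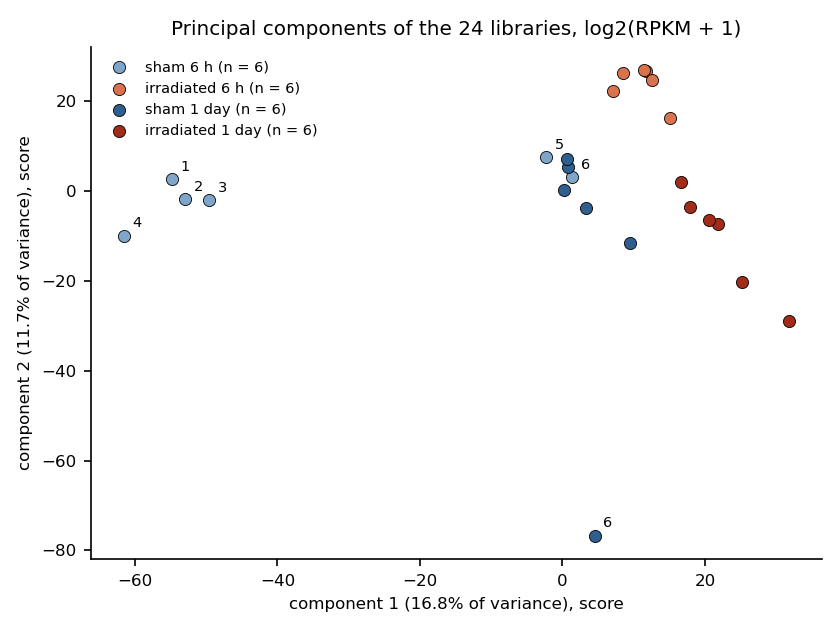
Scores of the 24 libraries on the first principal component (horizontal axis, 16.8% of the variance) and the second (vertical axis, 11.7%), from log2(RPKM + 1) of the tested genes. Each point is 1 library, coloured by group. Numbers mark the 6 sham 6 h libraries and sham 1 day library 6. Libraries 1 to 4 of the sham 6 h group lie at -49.5 and below on the first component.

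Across all tested genes, the irradiation effect was higher at 1 day than at 6 h for 173 genes (1.71% of those tested) and lower for 271 (2.67%). With sham 6 h libraries 5 and 6 only, 16 were higher (0.158%) and 16 lower (0.158%). Of the 444 genes called with all sham libraries, 439 had a shift of the same sign in that fit, which shares libraries with the first. The median shift was -0.68 against -1.06 for the lower genes and 0.47 against 0.74 for the higher genes. Without sham 1 day library 6 the counts were 180 (1.78%) and 371 (3.66%), and with both changes 20 (0.197%) and 15 (0.148%). Called in all 3 of the first fits were 28 genes, 13 higher (0.128%) and 15 lower (0.148%). Of these 28, 14 were called in each of 36 fits that varied scale, filter, test or a single library, with sham 5 and 6 reduced to 1 library and the uncorrected deposited values left aside, and the other 14 in at least 33. The 36 include the 3 fits by which the 28 were chosen, and most of them leave out 1 library, so they are not independent. Not called with limma-voom were Cep170b, D630023F18Rik, Fam198b, Glipr2, Gpnmb, Lgals1 and Matn1. Cd84, Crip2 and Trim30a were not called with the trend on GC content and gene span removed. Lgals1 and Fam198b were not called with a pseudocount of 0.1, nor Fam198b on the log2(RPM + 1) scale. Fam46c, Flcn, Glipr1 and Ptgs1 were not called with both changes to the sham libraries. Higher genes made up 39.0% of the calls, but 28.4% with limma-voom and 27.4% with the trend on GC content and gene span removed. The median shift over all tested genes was -0.07, and -0.27 with limma-voom.

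The shift has an irradiated side and a sham side. Irradiated 1 day minus irradiated 6 h libraries gave 450 genes higher (4.44%) and 714 lower (7.05%), a comparison that uses no sham library. The levels of all 6 irradiated 1 day libraries were above all 6 irradiated 6 h libraries for 281 genes (2.77%) and below for 387 (3.82%). Sham 1 day minus sham 6 h gave 573 higher (5.66%) and 536 lower (5.29%), but 0 and 0 by limma with sham 6 h libraries 5 and 6 only, with 346 genes at an unadjusted p under 0.05. The effect at 6 h alone had 1309 genes higher (12.9%) and 811 lower (8.00%), or 158 and 54 with sham 5 and 6 only, and that at 1 day had 294 higher (2.90%) and 141 lower (1.39%). Among the 271 lower genes the median change from 6 h to 1 day was -0.71 in irradiated and 0.37 in sham libraries, the latter 0.02 with sham 5 and 6 only. For the 173 higher genes these medians were 0.39, -0.35 and -0.07.

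**Figure D2:**
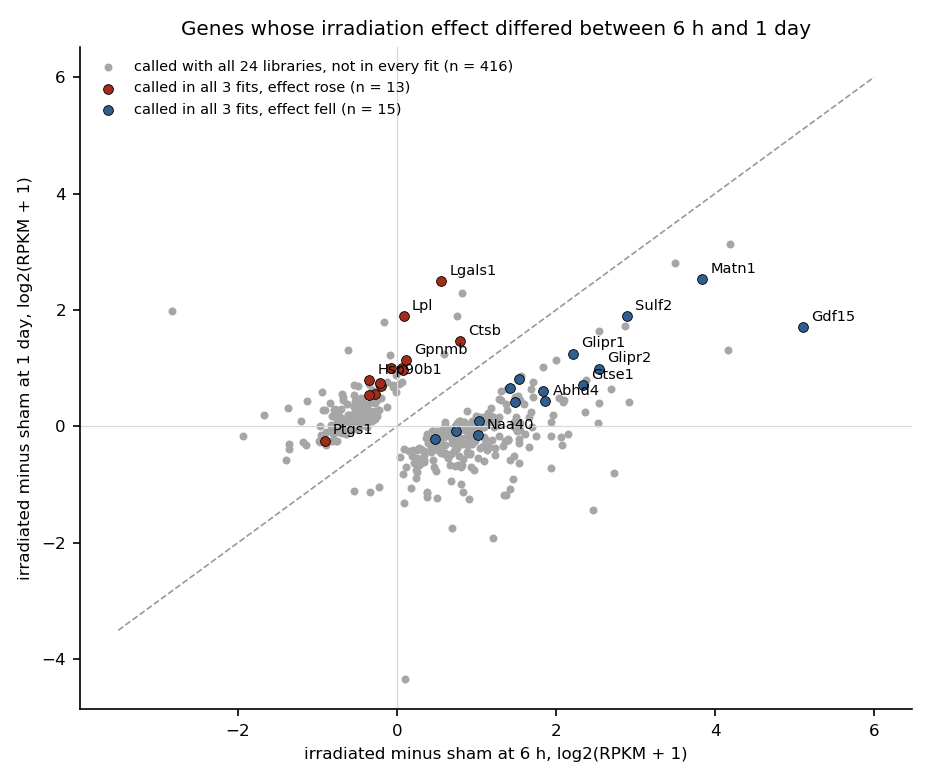
Irradiated minus sham at 6 h (horizontal axis) and at 1 day (vertical axis), both on the log2(RPKM + 1) scale, for the 444 genes whose effect differed between the times with all sham libraries. Each point is 1 gene, red and blue points are the 13 and 15 genes called in all 3 fits, grey points the other 416, and on the dashed line both effects are equal. Gdf15 lies farthest to the right, with an effect of 5.11 at 6 h and 1.70 at 1 day.

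Genes that irradiation raised strongly at 6 h and that had receded by 1 day were led by Gdf15, a p53 target that encodes a cytokine secreted by stressed cells (ENSMUSG00000038508, GRCm38 chromosome 8, 70629393 to 70632456). Its levels were 0.113, 0.376 and 0.837 RPKM in the sham 6 h and 38.4, 49.9 and 63.4 in the irradiated 6 h libraries. At 1 day Gdf15 had 0, 0.363 and 0.81 RPKM in the sham and 1.5, 3.57 and 5.88 in the irradiated libraries. All irradiated 6 h libraries were far above all others, the irradiated 1 day libraries still lay above every sham library, and the shift was -3.40 ± 0.49 (adjusted p = 4.66e-05), or -3.28 (adjusted p = 0.00722) with sham 6 h libraries 5 and 6 only. Matn1, which encodes the extracellular matrix protein matrilin 1 (ENSMUSG00000040533, GRCm38 chromosome 4, 130944385 to 130955475), had 0, 0 and 0.0423 RPKM in the sham 6 h and 9.63, 14.3 and 16.1 in the irradiated 6 h libraries. At 1 day Matn1 had 0, 0 and 0 RPKM in the sham and 2.92, 5.1 and 6.22 in the irradiated libraries. No read fell on it in the 6 sham 1 day libraries, which allows up to 0.0217 RPKM for 3 reads over the group, a limit that covers counting error only. Both irradiated groups lay above every sham library without overlapping each other, and the shift was -1.30 ± 0.21 (adjusted p = 0.000133). Sulf2, a sulfatase that trims heparan sulfate outside the cell (ENSMUSG00000006800, GRCm38 chromosome 2, 166073089 to 166155663), had 0.562, 0.975 and 1.34 RPKM in the sham 6 h and 12.4, 13.5 and 14.9 in the irradiated 6 h libraries. At 1 day Sulf2 had 0.691, 1.05 and 1.28 RPKM in the sham and 5.58, 6.21 and 8.04 in the irradiated libraries. Here too the irradiated 1 day libraries lay between the sham and the irradiated 6 h libraries with no overlap, with a shift of -1.0 ± 0.14 (adjusted p = 2.77e-05).

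Other genes called in all 3 fits were also high at 6 h and part of the way back at 1 day. Glipr2 (ENSMUSG00000028480, GRCm38 chromosome 4, 43957401 to 43979118), of the same protein superfamily as Glipr1, had 4.15, 4.68 and 7.21 RPKM in irradiated 6 h and 0.513, 1.28 and 1.98 in irradiated 1 day libraries, and its shift was -1.55 ± 0.19 (adjusted p = 1.38e-06). Sham 6 h libraries were at 0 to 0.0506 and sham 1 day libraries at 0 to 0.525, the highest of these the shallow library 6. Glipr1 itself had 4.79 to 7.11 RPKM in irradiated 6 h and 2.26 to 3.64 in irradiated 1 day libraries, above 0.303 to 0.522 and 0.165 to 1.16 in the sham libraries, with a shift of -0.96 ± 0.17 (adjusted p = 0.000623). Below the level set for naming, and so chosen after their values were seen, were Gtse1, Cep170b, Crip2, Fam198b and D630023F18Rik. Gtse1, which encodes a protein of the S and G2 phases that binds p53, went from 1.6 to 6.92 RPKM in irradiated 6 h to 0.346 to 1.02 in irradiated 1 day libraries, with at most 0.11 in any sham library, and had a shift of -1.63 ± 0.25 (adjusted p = 9.96e-05). Cep170b had the smallest adjusted p of the 28 with all libraries, a shift of -1.22 ± 0.13 (adjusted p = 1.19e-07), and went from 1.92 to 3.02 to 0.413 to 0.651 RPKM. Its 6 sham 1 day libraries held 0 reads, which allows up to 0.00984 RPKM. It was not called with limma-voom. Crip2 (-1.06 ± 0.18), at 0 in the sham 6 h libraries (up to 0.0404 RPKM), overlapped between the irradiated groups, and Fam198b (-0.73 ± 0.13) and D630023F18Rik (-0.76 ± 0.14) did not.

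For other genes the irradiated 1 day libraries overlapped the sham libraries. Abhd4, a lipase of N-acyl phospholipids, had 1.91, 3.72 and 4.96 RPKM in the sham 6 h and 11.7, 15.1 and 18.4 in the irradiated 6 h libraries. At 1 day Abhd4 had 1.04, 2.95 and 4.59 RPKM in the sham and 1.9, 4.46 and 6.35 in the irradiated libraries. The irradiated 6 h libraries stood alone and the other 3 groups overlapped, and the shift was -1.43 ± 0.28 (adjusted p = 0.00136). Naa40, an acetyltransferase of histone tails, was at 6.0 to 7.25 RPKM in irradiated 6 h libraries and at 1.0 to 2.5 in irradiated 1 day libraries, against 1.9 to 4.63 and 1.47 to 2.92 in the sham groups, with a shift of -1.17 ± 0.21 (adjusted p = 0.000623). Flcn, which encodes folliculin, a regulator of lysosomal nutrient signalling, fell from 17 to 22.4 to 8.81 to 13.1 RPKM against 9.95 to 15 in sham 6 h and 10.1 to 14.4 in sham 1 day libraries, a shift of -0.81 ± 0.17 (adjusted p = 0.00261). Fam46c, now named Tent5c, had a shift of -0.71 ± 0.17 (adjusted p = 0.00932), with 7.04 to 9.47 and 4.52 to 6.04 RPKM in the irradiated groups, which touched the sham ranges at both times. Cybb, the catalytic subunit of the phagocyte NADPH oxidase, had 0.145, 0.234 and 0.442 RPKM in the sham 6 h and 1.0, 1.63 and 1.87 in the irradiated 6 h libraries. At 1 day Cybb had 0.278, 0.52 and 0.76 RPKM in the sham and 0.457, 0.631 and 0.842 in the irradiated libraries. Its irradiated 6 h libraries lay above all others and its irradiated 1 day libraries overlapped the sham 1 day libraries, with a shift of -0.93 ± 0.16 (adjusted p = 0.000483). With sham 6 h libraries 5 and 6 only, the shifts of Matn1, Sulf2, Glipr2, Glipr1, Abhd4, Naa40, Flcn, Fam46c and Cybb were -1.29, -1.14, -1.53, -0.94, -1.45, -1.34, -0.89, -0.81 and -0.94. Flcn, Fam46c and Glipr1 were not called once sham 1 day library 6 was left out as well, nor Matn1 and Glipr2 with limma-voom.

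**Figure D3:**
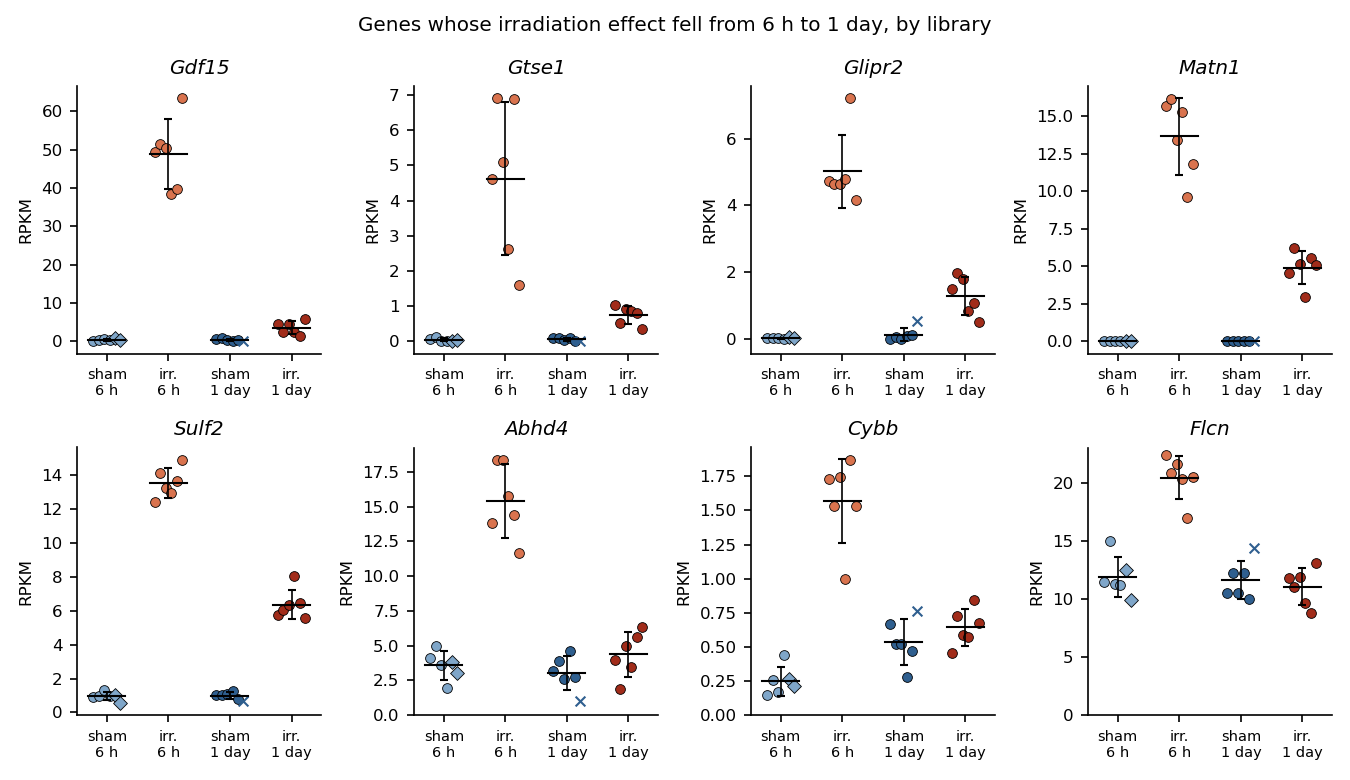
RPKM of 8 genes called in all 3 fits whose irradiation effect fell, 1 panel per gene, with 1 symbol per library, 6 in each of the 4 groups on the horizontal axis. Horizontal lines are means and error bars SD, diamonds mark sham 6 h libraries 5 and 6 and the cross sham 1 day library 6. Gdf15, Gtse1, Glipr2, Matn1 and Sulf2 keep irradiated 1 day means above the sham means, while for Abhd4 and Flcn the irradiated 1 day libraries overlap the sham libraries.

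Of 39 tested p53 targets, 0 had a higher and 10 a lower effect at 1 day, with a median shift of -0.37 against -0.07 over all genes. Among all tested genes 1.71% were higher and 2.67% lower. The 10 were Ccng1, Phlda3, Trp53inp1, Gdf15, Plk2, Ei24, Perp, Dcxr, Ptp4a3 and Sertad1. With sham 6 h libraries 5 and 6 only, Gdf15 alone was called, against 0.158% lower among all tested genes, and the median was -0.32. On the irradiated side 0 targets rose and 14 fell from 6 h to 1 day, while irradiated minus sham was higher for 28 at 6 h and for 24 at 1 day. Over all tested genes 7.05% fell on that side, and irradiated minus sham was higher for 12.9% at 6 h and 2.90% at 1 day. Dcxr, a xylulose reductase, was at 73.4 to 96.4 RPKM in irradiated 6 h and 12.8 to 40.5 in irradiated 1 day libraries, with a shift of -2.85 ± 0.51 (adjusted p = 0.000681). Its sham 6 h libraries 1 to 4 were at 1.45 to 4.02 and libraries 5 and 6 at 7.96 and 13.8, and against the latter alone the shift was -1.57 (adjusted p = 0.327). Perp, a membrane protein of p53-dependent cell death, was at 1.26 to 3.17 RPKM in irradiated 6 h libraries, above the 0.221 to 0.867 of irradiated 1 day libraries, and shifted by -0.98 ± 0.19 (adjusted p = 0.00177). Ccng1, or cyclin G1, had 8.56, 9.34 and 11.5 RPKM in the sham 6 h and 98.2, 118 and 141 in the irradiated 6 h libraries. At 1 day Ccng1 had 7.49, 9.1 and 9.8 RPKM in the sham and 58.1, 66.3 and 84.8 in the irradiated libraries. Both irradiated groups were far above all sham libraries and apart from each other, and the shift was -0.68 ± 0.16 (adjusted p = 0.0118), or -0.78 (adjusted p = 0.0956) with sham 5 and 6 only.

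Cdkn1a and Mdm2, among the best known p53 targets, had shifts that did not pass. Cdkn1a, which encodes the cell cycle inhibitor p21, had 1.03, 1.84 and 6.99 RPKM in the sham 6 h and 116, 148 and 199 in the irradiated 6 h libraries. At 1 day Cdkn1a had 1.52, 1.95 and 3.04 RPKM in the sham and 95.2, 99.6 and 124 in the irradiated libraries. Both irradiated groups lay far above every sham library and overlapped each other, and its shift of -0.45 ± 0.35 (adjusted p = 0.539) did not pass. Mdm2, the ubiquitin ligase that limits p53, had 10.5, 13.2 and 17.5 RPKM in irradiated 6 h and 5.7, 9.63 and 12.8 in irradiated 1 day libraries, which overlapped, with a shift of -0.28 ± 0.23 (adjusted p = 0.565). Phlda3, an inhibitor of Akt signalling, and the kinase Plk2, both chosen after their values were seen, had shifts of -1.05 ± 0.25 (adjusted p = 0.0115) and -1.13 ± 0.33 (adjusted p = 0.0421), and -1.12 and -1.43 with sham 5 and 6 only, which did not pass. Of 24 apoptosis genes 0 were higher and 1 lower, Bcl2l1, an inhibitor of cell death, at 4.91 to 6.51 RPKM in irradiated 6 h and 1.38 to 3.44 in irradiated 1 day libraries (shift -0.86 ± 0.24, adjusted p = 0.0272; -0.67, adjusted p = 0.61 with sham 5 and 6 only, which did not pass). Among all tested genes 2.67% were lower, so this 1 call is not read as a result about the list. None of 14 DNA damage and repair genes, 12 S phase genes and 4 mitosis genes was called, though irradiated libraries fell from 6 h to 1 day for 3 of the repair genes and 1 S phase gene, Pcna, the sliding clamp of DNA polymerase, being among both (irradiated side -0.77 ± 0.20, adjusted p = 0.00977). On that side 7.05% of all tested genes fell. Without sham 1 day library 6 the repair gene Rad9a was lower (-1.28, adjusted p = 0.014), and 1 repair gene was also lower with limma-voom and with the trend on GC content and gene span removed.

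Genes whose irradiation effect grew from 6 h to 1 day were led in size by Lgals1 and Lpl. Lgals1 encodes galectin 1, a carbohydrate-binding protein of activated macrophages (ENSMUSG00000068220, GRCm38 chromosome 15, 78926725 to 78930465), and had 0, 0.525 and 1.63 RPKM in the sham 6 h and 0.289, 1.26 and 2.35 in the irradiated 6 h libraries. At 1 day Lgals1 had 0, 0.494 and 1.4 RPKM in the sham and 3.83, 8.3 and 8.86 in the irradiated libraries. Every irradiated 1 day library was above every other library, and the shift was 1.93 ± 0.37 (adjusted p = 0.0012), or 2.40 (adjusted p = 0.00453) with sham 6 h libraries 5 and 6 only. Lgals1 was not called with a pseudocount of 0.1 or with limma-voom. Lpl, the lipoprotein lipase (ENSMUSG00000015568, GRCm38 chromosome 8, 68880491 to 68907448), had 4.95, 5.68 and 8.77 RPKM in the sham 6 h and 4.19, 7.63 and 8.53 in the irradiated 6 h libraries. At 1 day Lpl had 3.4, 4.3 and 8.7 RPKM in the sham and 12.5, 20.9 and 26.7 in the irradiated libraries. Again the irradiated 1 day libraries stood alone and the other 3 groups overlapped, with a shift of 1.81 ± 0.28 (adjusted p = 9.01e-05), or 1.61 (adjusted p = 0.0176). Ctsb, the lysosomal protease cathepsin B (ENSMUSG00000021939, GRCm38 chromosome 14, 63122462 to 63145919), rose at both times and had 103, 109 and 169 RPKM in the sham 6 h and 203, 210.5 and 218 in the irradiated 6 h libraries. At 1 day Ctsb had 130.0, 143 and 157 RPKM in the sham and 324, 406 and 456 in the irradiated libraries. The irradiated 6 h libraries lay above all sham libraries and the irradiated 1 day libraries above them, and the shift was 0.67 ± 0.15 (adjusted p = 0.00761), or 1.04 (adjusted p = 0.000685) against sham 5 and 6, which were higher (145 and 169 RPKM) than sham 1 to 4 (103 to 110.3).

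Ctsc, cathepsin C, was at 24.7 to 38 RPKM in irradiated 1 day libraries and at 16.2 to 19.3 in irradiated 6 h libraries, the sham libraries spanning 19.1 to 22 at 6 h and 16.2 to 18.9 at 1 day. The effect was -0.21 at 6 h, which did not pass, and 0.75 at 1 day, which did, with a shift of 0.96 ± 0.14 (adjusted p = 6.24e-05). Cd84, a homophilic receptor of the SLAM family, had a lower mean than sham at 6 h, with some overlap, and lay above it at 1 day, at 2.69 to 4.25 and 6.09 to 9.26 RPKM against 4.11 to 5.29 and 4.03 to 4.88 in sham libraries (shift 0.89 ± 0.15, adjusted p = 0.000216). Ptgs1, cyclooxygenase 1, a prostaglandin enzyme of resting microglia, differed from these. It was lowered at 6 h and at 1 day had come back in irradiated libraries 4 to 6 but only in part in libraries 1 to 3. Its levels were 53, 57.6 and 59.8 RPKM in the sham 6 h and 27.6, 30.1 and 31.7 in the irradiated 6 h libraries. At 1 day Ptgs1 had 50.3, 54.8 and 59.3 RPKM in the sham and 36.2, 47.1 and 56.5 in the irradiated libraries. The shift was 0.66 ± 0.13 (adjusted p = 0.00236). The irradiated 6 h libraries lay below all others. Irradiated 1 day libraries 1 to 3, at 36.2 to 42.5 RPKM, lay below every sham library, and libraries 4 to 6, at 51.7 to 56.5, lay within the sham range.

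Gpnmb, Psat1 and Cpd, below the level set for naming, completed the set and were chosen after their values were seen. Gpnmb, a glycoprotein of lipid-laden macrophages, was at 0.567 to 1.92 RPKM in irradiated 1 day libraries and at most 0.336 in any other library, with a shift of 1.02 ± 0.20 (adjusted p = 0.00138). Psat1, an enzyme of serine synthesis, was at 1.35 to 3.52 RPKM in irradiated 1 day libraries and at 0.432 to 0.689 in irradiated 6 h libraries, and shifted by 1.08 ± 0.19 (adjusted p = 0.000575). Cpd, carboxypeptidase D, shifted by 0.94 ± 0.14 (adjusted p = 9.01e-05) and was at 2.81 to 5.49 RPKM in irradiated 1 day libraries, above the other groups. With sham 5 and 6 only, the shifts of Ctsc, Cd84, Ptgs1, Gpnmb, Psat1 and Cpd were 0.91, 0.91, 0.71, 1.10, 1.35 and 0.80. Ptgs1 was not called once sham 1 day library 6 was left out as well.

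**Figure D4:**
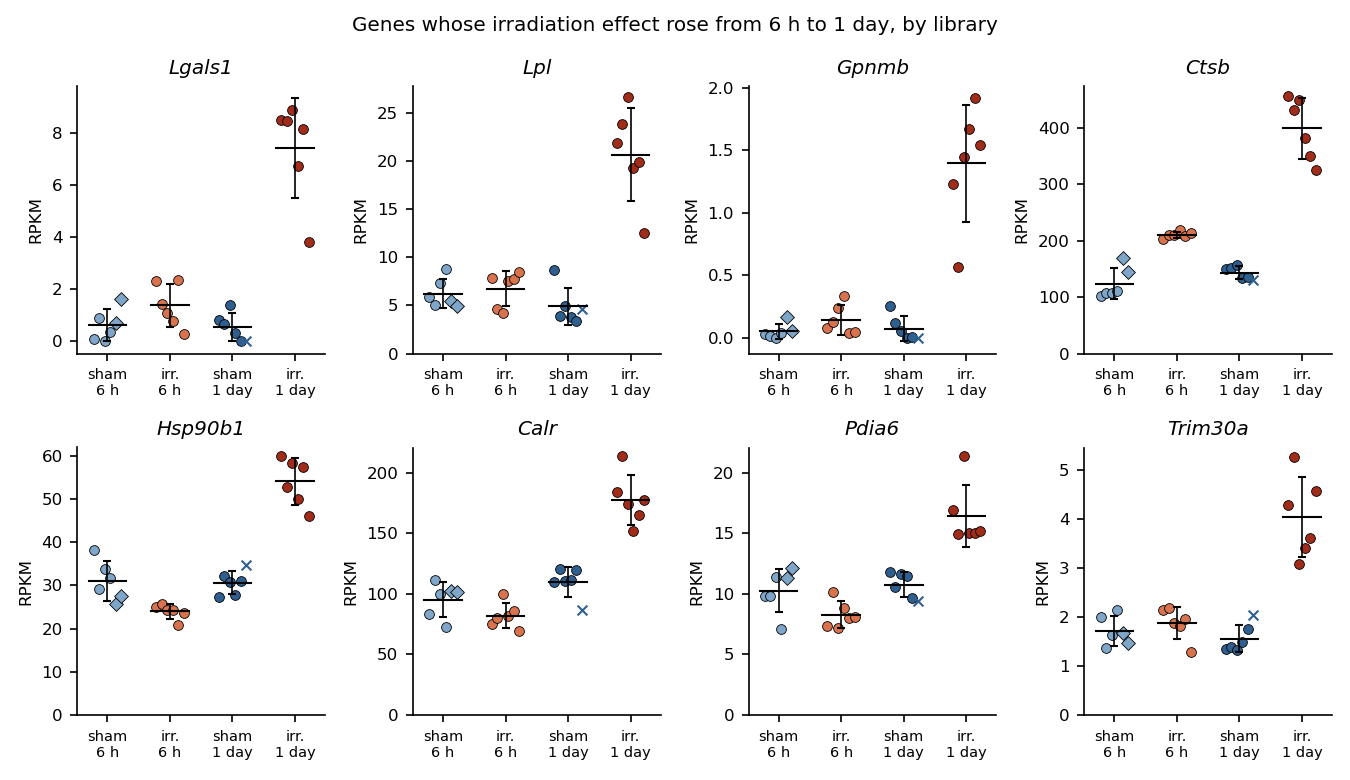
RPKM of 8 genes called in all 3 fits whose irradiation effect rose, 1 panel per gene, with 1 symbol per library, 6 in each of the 4 groups on the horizontal axis. Horizontal lines are means and error bars SD, diamonds mark sham 6 h libraries 5 and 6 and the cross sham 1 day library 6. In each panel the 6 irradiated 1 day libraries lie above the other 18.

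Chaperones and folding enzymes of the ER were among the genes whose effect grew. Of 22 tested genes of the unfolded protein and integrated stress response, 7 had a higher effect at 1 day and 0 a lower one, with a median shift of 0.61 against -0.07 over all genes. The shares over all tested genes were 1.71% higher and 2.67% lower. The 7 were Hspa5, Hsp90b1, Calr, Pdia6, Manf, Xbp1 and Sel1l. With sham 6 h libraries 5 and 6 only, 3 were called, Hsp90b1, Calr and Pdia6, against 0.158% higher among all tested genes, with a list median of 0.47. Without sham 1 day library 6, 7 were higher and 2 lower, the stress genes Ddit3 and Sesn2, and limma-voom gave 8 and 2. Relative to all genes the median ran from 0.48 to 1.01 over 13 settings. Hsp90b1, the ER form of Hsp90 (ENSMUSG00000020048, GRCm38 chromosome 10, 86690209 to 86705509), had 25.7, 30.4 and 38.3 RPKM in the sham 6 h and 20.9, 24.4 and 25.6 in the irradiated 6 h libraries. At 1 day Hsp90b1 had 27.4, 30.8 and 34.7 RPKM in the sham and 46, 55.1 and 60 in the irradiated libraries. Its irradiated 6 h libraries lay below every sham library and its irradiated 1 day libraries above all others, with a shift of 1.15 ± 0.17 (adjusted p = 4.66e-05), or 0.95 (adjusted p = 0.0176) with sham 5 and 6 only.

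Calr encodes calreticulin, a lectin chaperone that also loads peptides on MHC class I (ENSMUSG00000003814, GRCm38 chromosome 8, 84841850 to 84846934), and had 72.6, 101 and 112 RPKM in the sham 6 h and 69.3, 81 and 100.3 in the irradiated 6 h libraries. At 1 day Calr had 86.3, 111 and 121 RPKM in the sham and 152, 176 and 214 in the irradiated libraries. The irradiated 1 day libraries stood above all 18 others, which overlapped, with a shift of 0.89 ± 0.17 (adjusted p = 0.000956), or 1.01 (adjusted p = 0.00789) with sham 5 and 6 only. Pdia6, a disulfide isomerase (ENSMUSG00000020571, GRCm38 chromosome 12, 17266545 to 17284770), went from 7.23 to 10.2 RPKM in irradiated 6 h to 14.9 to 21.4 in irradiated 1 day libraries, with 7.12 to 12.1 and 9.39 to 11.8 in the sham groups. Its shift was 0.83 ± 0.15 (adjusted p = 0.000681), or 1.02 (adjusted p = 0.000685). Hspa5, or BiP, the main Hsp70 of the ER, was chosen after its values were seen and was at 69.4 to 119 RPKM in irradiated 6 h and 144 to 252 in irradiated 1 day libraries. Its sham 6 h libraries 1 to 4 were at 106 to 239.8 and libraries 5 and 6 at 101 and 114, and the shift of 1.14 ± 0.23 (adjusted p = 0.00196) was 0.64 (adjusted p = 0.265) with the latter only. Manf, a secreted ER protein, and Xbp1, a transcription factor of the unfolded protein response, both chosen in the same way, shifted by 0.95 ± 0.24 (adjusted p = 0.0173) and 0.84 ± 0.20 (adjusted p = 0.00953), and by 0.76 and 0.84 with sham 5 and 6 only, which did not pass.

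On the irradiated side alone the list divided. From irradiated 6 h to irradiated 1 day 13 of the 22 rose and 3 fell, and 13 members lay wholly above and 3 wholly below in the irradiated 1 day libraries. Over all tested genes 4.44% rose and 7.05% fell, and 2.77% lay wholly above and 3.82% wholly below. The 13 were Hspa5, Hsp90b1, Calr, Canx, Pdia3, Pdia4, Pdia6, Dnajb11, Sdf2l1, Manf, Xbp1, Sel1l and Hyou1, nearly all chaperones, folding enzymes or parts of ER quality control. The 3 that fell were Atf4, Ddit3 and Sesn2. Atf4, the transcription factor of the integrated stress response, was singled out after its values were seen and was at 179 to 303 RPKM in irradiated 6 h and 44 to 121 in irradiated 1 day libraries, a change of -1.55 ± 0.29 (adjusted p = 0.000249). Ddit3, its target CHOP, changed by -1.44 ± 0.28 (adjusted p = 0.000538). Sham libraries of Atf4 were at 62.9 to 117 RPKM at 1 day and 109 to 264 at 6 h, and its shift of -0.66 ± 0.41 (adjusted p = 0.391) did not pass. That of Ddit3, -1.15 ± 0.40 (adjusted p = 0.0867), had an adjusted p of 0.0437 without sham 1 day library 6. P4hb, a disulfide isomerase outside the list, was called with sham 5 and 6 only (0.56, adjusted p = 0.0436) and not with all sham libraries (0.24 ± 0.13). The same held for Abcc3, an organic anion pump (1.11, adjusted p = 0.0138; 0.42 ± 0.23), Anxa5, a protein that binds phosphatidylserine (1.06, adjusted p = 0.02; 0.65 ± 0.20), and Vcam1, an adhesion molecule (-1.09, adjusted p = 0.0455; -0.77 ± 0.24), all chosen after their values were seen.

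The promoters of the ER genes are shown because 7 members of the list moved in 1 direction. The ER stress response element, CCAAT and CCACG with 9 bases of any kind between them, was searched on both strands in windows of 250 bases before to 50 bases after the start of each gene, from RefSeq (GRCm38.p6). Of the 7 members that rose, 6 had a window, Manf being without one, and 4 of the 6 held the element. It was found in 39 of 32851 windows (0.119%), in 11 of 5666 tested genes with a window (0.194%) and in 7 of the 20 list members with a window. Of 124 genes whose shift was higher it was in 4 (3.23%), the same 4 list members, and of 204 whose shift was lower in 0. The list is made of known genes of this stress response, so its share is no independent support. This motif was chosen after the shift of these genes was seen, and a match describes letters, not binding. The windows are printed 5′ to 3′ on the gene's strand with the element in capitals, in either orientation: Hspa5 (chr2:34771840-34772139, plus strand), Hsp90b1 with 2 matches (chr10:86705395-86705694, minus strand), Calr (chr8:84846882-84847181, minus strand) and Pdia6 (chr12:17266339-17266638, plus strand).
Hspa5: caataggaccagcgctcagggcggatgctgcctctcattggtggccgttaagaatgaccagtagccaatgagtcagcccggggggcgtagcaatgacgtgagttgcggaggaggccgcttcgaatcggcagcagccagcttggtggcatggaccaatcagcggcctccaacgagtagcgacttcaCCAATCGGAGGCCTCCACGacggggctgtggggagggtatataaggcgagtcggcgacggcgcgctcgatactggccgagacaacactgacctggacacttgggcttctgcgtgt
Hsp90b1: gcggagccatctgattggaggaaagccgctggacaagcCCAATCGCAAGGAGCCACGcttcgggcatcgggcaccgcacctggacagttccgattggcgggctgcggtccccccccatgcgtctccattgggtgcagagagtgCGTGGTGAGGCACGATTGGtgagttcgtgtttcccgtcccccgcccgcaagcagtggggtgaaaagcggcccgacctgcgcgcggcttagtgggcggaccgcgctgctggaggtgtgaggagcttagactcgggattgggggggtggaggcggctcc
Calr: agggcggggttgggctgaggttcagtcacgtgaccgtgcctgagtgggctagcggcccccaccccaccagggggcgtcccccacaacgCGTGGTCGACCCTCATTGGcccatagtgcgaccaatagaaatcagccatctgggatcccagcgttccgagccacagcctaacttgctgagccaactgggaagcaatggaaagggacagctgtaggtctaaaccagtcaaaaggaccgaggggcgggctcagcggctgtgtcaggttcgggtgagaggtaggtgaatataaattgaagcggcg
Pdia6: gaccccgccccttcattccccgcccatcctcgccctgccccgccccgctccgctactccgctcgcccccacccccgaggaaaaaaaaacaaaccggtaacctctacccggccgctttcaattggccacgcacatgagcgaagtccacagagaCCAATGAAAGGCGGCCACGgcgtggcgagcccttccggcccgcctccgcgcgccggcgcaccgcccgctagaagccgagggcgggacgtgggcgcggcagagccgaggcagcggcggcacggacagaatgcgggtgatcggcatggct
The 4 elements of Hspa5, Pdia6, Calr and the nearer one of Hsp90b1 began 65, 98, 162 and 107 bases before the start. The windows of Xbp1 and Sel1l did not hold these letters.

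Calls among interferon-stimulated genes were in the same direction. Of 34 tested, 4 had a higher effect at 1 day, Ifit2, Trim30a, Parp14 and Dhx58, and 0 a lower one, with a median shift of 0.41. The shares over all tested genes were 1.71% higher and 2.67% lower. With sham 5 and 6 only the call was limited to Trim30a, against 0.158% higher among all tested genes, and the list median was 0.35. Irradiated minus sham was higher for 20 of the 34 at 6 h and for 23 at 1 day, with 0 lower at either time. It was higher for 12.9% of all tested genes at 6 h and for 2.90% at 1 day. Trim30a, which encodes a regulator of innate signalling (ENSMUSG00000030921, GRCm38 chromosome 7, 104409025 to 104465193), had 1.37, 1.65 and 2.14 RPKM in the sham 6 h and 1.28, 1.91 and 2.19 in the irradiated 6 h libraries. At 1 day Trim30a had 1.33, 1.44 and 2.03 RPKM in the sham and 3.07, 3.94 and 5.26 in the irradiated libraries. Its irradiated 1 day libraries lay above all others, and the irradiated 6 h libraries among the sham libraries. The shift was 0.89 ± 0.14 (adjusted p = 0.000144), or 0.81 (adjusted p = 0.0176) with sham 5 and 6 only. With the trend on GC content and gene span removed the shift was 0.50 and did not pass. It has close paralogs, so its reads may be shared.

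Dhx58, which encodes the RNA sensor LGP2, had 0.807, 2.13 and 3.29 RPKM in the sham 6 h and 2.53, 4.26 and 5.49 in the irradiated 6 h libraries. At 1 day Dhx58 had 1.74, 2.52 and 6.07 RPKM in the sham and 8.73, 13.6 and 23.4 in the irradiated libraries. Its irradiated 1 day libraries also stood above all others, with a shift of 1.13 ± 0.32 (adjusted p = 0.0312), or 1.55 (adjusted p = 0.0634). Ifit2, an inhibitor of viral translation, differed among the sham libraries: sham 6 h libraries 1 to 4 were at 1.64 to 3.13 RPKM and libraries 5 and 6 at 0.185 and 0.401. Its shift of 1.31 ± 0.37 (adjusted p = 0.0329) became 0.42 (adjusted p = 0.888). From irradiated 6 h to irradiated 1 day 8 of the 34 rose and 0 fell, among them Irf9 (0.95 ± 0.23, adjusted p = 0.00552), a transcription factor of interferon signalling chosen after its values were seen. On the irradiated side 4.44% of all tested genes rose and 7.05% fell. Ifit3 and Rsad2, antiviral effectors, were raised at both times and had shifts of 0.09 ± 0.39 (adjusted p = 0.935) and 0.65 ± 0.38 (adjusted p = 0.369), which did not pass. The interferon-stimulated response element, searched on both strands as GAAA, 2 bases of any kind and GAAA, was in 1131 of 32851 windows (3.44%), in 15 of the 25 list members with a window, and in 6 of 124 genes whose shift was higher (4.84%). It was in 9 of 204 genes whose shift was lower (4.41%) and in 211 of 5666 tested genes with a window (3.72%). Both windows of Ifit2 held no match. Another window of Trim30a (chr7:104446076-104446375, minus strand) held 1 match on the opposite strand, at position 3 counted from its start. A window of Trim30a is shown as that of the 1 interferon gene called in all 3 fits, with the element in capitals on the opposite strand (chr7:104465144-104465443, minus strand), 36 bases before the start.
Trim30a: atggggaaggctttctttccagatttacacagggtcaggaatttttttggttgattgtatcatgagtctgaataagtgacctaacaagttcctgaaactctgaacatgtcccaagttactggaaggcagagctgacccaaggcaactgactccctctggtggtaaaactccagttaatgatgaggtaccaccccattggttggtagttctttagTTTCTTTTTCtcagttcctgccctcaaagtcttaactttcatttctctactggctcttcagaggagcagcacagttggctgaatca

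Genes of disease-associated microglia, a state with high lysosomal and lipid genes, had calls in both directions with all sham libraries. All tested genes gave 1.71% higher and 2.67% lower. Of 33 tested, 5 were higher, Lpl, Spp1, Gpnmb, Ctsb and Lgals1, and 3 lower, Tyrobp, Csf1 and Cybb, with a median shift of 0.04. With sham 5 and 6 only 4 were higher and 1 lower, since Spp1, Tyrobp and Csf1 were not called, and the median was 0.26. All tested genes gave 0.158% higher and 0.158% lower in that fit. Spp1, which encodes the secreted phosphoprotein osteopontin, had 0.313, 0.635 and 1.23 RPKM in the sham 6 h and 1.24, 1.86 and 2.91 in the irradiated 6 h libraries. At 1 day Spp1 had 0.392, 0.908 and 2.53 RPKM in the sham and 5.0, 8.99 and 15 in the irradiated libraries. The irradiated 1 day libraries were above all others and the irradiated 6 h libraries above the sham 6 h libraries, with a shift of 1.47 ± 0.34 (adjusted p = 0.00847), or 1.67 (adjusted p = 0.0984) with sham 5 and 6 only. Apoe, the main brain apolipoprotein, had 69.1 to 215 RPKM in sham 6 h, 193 to 248 in irradiated 6 h, 68.5 to 229 in sham 1 day and 87.3 to 270.0 in irradiated 1 day libraries, and these ranges overlapped in every pair of groups. Its shift of -0.55 ± 0.38 (adjusted p = 0.461) did not pass. Of 19 genes of lipid efflux and handling 3 were higher, Abca1, Lpl and Abca9, and 0 lower, with a median of -0.10. Abca1, the cholesterol exporter, was at 3.47 to 4.03 RPKM in irradiated 6 h and 5.24 to 10.1 in irradiated 1 day libraries. Its sham 6 h libraries 1 to 4 were at 5.95 to 6.81 and libraries 5 and 6 at 3.85 and 4.7, and the shift of 1.19 ± 0.19 (adjusted p = 0.000123) was 0.86 (adjusted p = 0.0956) with the latter only. Abca9, a related transporter, shifted by 0.71 ± 0.19 (adjusted p = 0.0267) and by 0.52 with sham 5 and 6 only, which did not pass. None of 13 cholesterol synthesis genes was called, Hmgcs1 and Ebp included (0.30 ± 0.21 and 0.45 ± 0.32).

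Lysosomal genes had calls in both directions, against 1.71% higher and 2.67% lower among all tested genes. Of 47 tested, 3 were higher, Ctsb, Ctsc and Grn, and 2 lower, Atp6v0b and Atp6v0d1, both subunits of the proton pump, with a median shift of -0.04. With sham 5 and 6 only, Ctsb and Ctsc were called, against 0.158% higher among all tested genes. Grn, which encodes the lysosomal growth factor progranulin, shifted by 0.82 ± 0.17 (adjusted p = 0.00261), or 0.64 (adjusted p = 0.232) with sham 5 and 6 only. From irradiated 6 h to irradiated 1 day 13 of the 47 rose and 8 fell, against 4.44% and 7.05% of all tested genes. The palindrome TCACGTGA, the core of the CLEAR element of lysosomal genes, was in 320 of 32851 windows (0.974%) and in 148 of 5666 tested genes with a window (2.61%). It was in 6 of 37 list members with a window, and in neither the Ctsc nor the Grn window. Of 22 complement and phagocytosis genes 0 were higher and 2 lower, C1qb and Tyrobp. Neither was called with sham 5 and 6 only. C1qb, a chain of complement C1q, was at 92.1 to 132 RPKM in sham 6 h libraries 1 to 4 and 478 and 484 in libraries 5 and 6, against 446 to 503 in irradiated 6 h and 413 to 644 in irradiated 1 day libraries. Its shift of -1.10 ± 0.33 (adjusted p = 0.049) turned to 0.28 (adjusted p = 0.777) with libraries 5 and 6 only. Tyrobp, the adaptor of Trem2, had -1.07 ± 0.27 (adjusted p = 0.0184) and -0.49 (adjusted p = 0.753).

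Among 30 homeostatic microglia genes, 2 were higher, Gpr34 and Tgfbr1, and 4 lower, Siglech, Selplg, Sparc and Crybb1, with a median shift of 0.11, and none was called with sham 5 and 6 only (32 genes were called in that fit and 754 had an unadjusted p under 0.05). With all sham libraries 1.71% of all tested genes were higher and 2.67% lower. Siglech, a sialic acid receptor chosen after its values were seen, had 135, 154 and 162 RPKM in the sham 6 h and 87.4, 101 and 122 in the irradiated 6 h libraries. At 1 day Siglech had 97.6, 152 and 171 RPKM in the sham and 51.3, 63.9 and 75.3 in the irradiated libraries. Both irradiated groups lay below the sham group of their time and apart from each other, with a shift of -0.58 ± 0.16 (adjusted p = 0.028), or -0.60 (adjusted p = 0.278). Selplg, the ligand of P-selectin, and Sparc, a matrix protein, had shifts of -1.48 ± 0.28 (adjusted p = 0.00109) and -1.12 ± 0.22 (adjusted p = 0.00136). Sham 6 h libraries 1 to 4 were at 54.3 to 66.6 RPKM for Selplg and 98 to 147 for Sparc, and libraries 5 and 6 at 129 and 144 and 202 and 217. With the latter only the shifts were -0.69 (adjusted p = 0.544) and -0.65 (adjusted p = 0.373). For Selplg, irradiated 1 day libraries 1 to 3 were at 49.6 to 64.7 RPKM and libraries 4 to 6 at 97.1 to 132. Tgfbr1, a TGF-beta receptor, was at 29.9 to 34.8 RPKM in sham 6 h libraries 1 to 4 and 17 and 18.1 in libraries 5 and 6, and its shift of 0.77 ± 0.20 (adjusted p = 0.0237) became 0.19 (adjusted p = 0.913). P2ry12, the ADP receptor of resting microglia, was lowered at both times, at 38.6 to 52.2 RPKM in irradiated 6 h and 53.7 to 67.6 in irradiated 1 day libraries against 90.2 to 108 and 87 to 141 in sham libraries, and its shift of 0.34 ± 0.18 (adjusted p = 0.307) did not pass. Nor did those of Cx3cr1 (-0.18 ± 0.13), the microglial membrane protein Tmem119 (-0.63 ± 0.26) and the identity factor Sall1 (0.09 ± 0.26). Of 14 TGF-beta genes 2 were higher, Tgfbr1 and Skil, a repressor of Smad proteins (0.85 ± 0.26, adjusted p = 0.048), whose shift was -0.01 (adjusted p = 0.998) with sham 5 and 6 only.

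Calls among cytokine, chemokine and MHC class II genes were lower ones, against 2.67% lower among all tested genes. Of 25 cytokine and NF-kB feedback genes 0 were higher and 2 lower, with a median of -0.15. These were Rela, the p65 subunit of NF-kB (-1.29 ± 0.27, adjusted p = 0.00347; -0.67, adjusted p = 0.628 with sham 5 and 6 only), and Tnfaip2 (-1.42 ± 0.43, adjusted p = 0.0466; -1.15, adjusted p = 0.631). Tnfaip2 was at 5.59 and 4.09 RPKM in sham 1 day libraries 5 and 6 and at 0.788 to 1.55 in the other sham 1 day libraries. Without sham 1 day library 6 the list had 1 lower call instead of 2. Tnf had 0.52, 3.37 and 4.88 RPKM in the sham 6 h and 11.4, 23.1 and 72.7 in the irradiated 6 h libraries. At 1 day Tnf had 0.944, 2.73 and 13 RPKM in the sham and 8.11, 14.6 and 23 in the irradiated libraries. The irradiated 6 h libraries lay above the sham 6 h libraries, the irradiated groups overlapped each other and sham 1 day, and the shift of -0.92 ± 0.63 (adjusted p = 0.465) did not pass. Of 12 chemokines 1 was lower, Ccl9 (-0.78 ± 0.23, adjusted p = 0.0422; -0.54, adjusted p = 0.699), at 30.6 to 54.3 RPKM in irradiated 1 day libraries, all below the 74.6 to 113 of the sham 1 day libraries. Its irradiated 6 h libraries, at 37 to 57.5 RPKM, overlapped the irradiated 1 day libraries, and its sham 6 h libraries were at 51.1 to 77.7. Without sham 1 day library 6, no chemokine was called. Ccl2 and Ccl12, which attract monocytes, were raised at both times and had shifts of 0.46 ± 0.42 and -0.09 ± 0.42, neither of which passed. Of 11 MHC class II and co-stimulation genes 0 were higher and 2 lower. Cd74, the invariant chain, had 0.914, 2.38 and 4.14 RPKM in the sham 6 h and 6.41, 14.2 and 20.8 in the irradiated 6 h libraries. At 1 day Cd74 had 1.94, 3.17 and 3.34 RPKM in the sham and 1.63, 2.55 and 4.51 in the irradiated libraries. The irradiated 6 h libraries lay above all others, with a shift of -2.29 ± 0.49 (adjusted p = 0.00405), or -1.82 (adjusted p = 0.263). H2-Oa, a regulator of peptide loading, shifted by -3.12 ± 0.63 (adjusted p = 0.00224) and -2.91 (adjusted p = 0.137), and the class II chain H2-Aa by -0.63 ± 0.41, which did not pass. Of 21 MHC class I and peptide loading genes 1 was higher, Calr, and 0 lower.

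Metabolic and housekeeping lists had lower calls that did not pass with sham 6 h libraries 5 and 6 only, a fit with fewer sham libraries. Among all tested genes 1.71% were higher and 2.67% lower. Of 76 ribosomal protein genes 0 were higher and 9 lower, with a median of -0.55, and with sham 5 and 6 only 0 were called and the median was -0.29. Rps9 was at 24.6 to 33.8 RPKM in sham 6 h libraries 1 to 4, 77.5 and 84.5 in libraries 5 and 6, 82.8 to 213 in irradiated 6 h, 51 to 93.6 in sham 1 day and 38 to 77.5 in irradiated 1 day libraries. Its shift was -1.97 ± 0.37 (adjusted p = 0.000956), or -0.98 (adjusted p = 0.452). Rpl32 and Rps3a1 shifted by -1.71 ± 0.37 (adjusted p = 0.00405) and -0.90 ± 0.20 (adjusted p = 0.00544), and by -0.67 and -0.41 with sham 5 and 6 only. Ribosomal protein genes have many near-identical pseudogenes, so these values are uncertain. Of 64 oxidative phosphorylation genes 0 were higher and 3 lower, with a median of -0.38, or -0.06 and 0 calls with sham 5 and 6 only. Beside the 2.67% of all tested genes this count is not read as a result about the list. Among the 3 were Cox7a2l (-1.04 ± 0.23, adjusted p = 0.00559), which helps assemble respiratory supercomplexes, and Uqcr11 (-1.56 ± 0.48, adjusted p = 0.049), a subunit of complex III. Of 18 glycolysis and hypoxia genes 1 was lower, lactate dehydrogenase A or Ldha (-0.81 ± 0.23, adjusted p = 0.0323; -0.23, adjusted p = 0.873). Of 21 antioxidant genes 0 were higher and 3 lower: the haem oxygenase Hmox1, the glutathione peroxidase Gpx1 and the metallothionein Mt2. Hmox1 had 9.66 to 17.1 RPKM in irradiated 6 h libraries, above every library of the other 3 groups, and shifted by -1.60 ± 0.47 (adjusted p = 0.0376), or -1.79 (adjusted p = 0.236). Mt2 was at 5.93 to 18.5 RPKM in irradiated 6 h libraries, 0 to 4.71 in irradiated 1 day and 0 to 9.04 in sham 1 day libraries, the last overlapping the first, with a shift of -2.47 ± 0.66 (adjusted p = 0.0239). Gpx1 shifted by -0.95 ± 0.29 (adjusted p = 0.048) and by -0.48 with sham 5 and 6 only. Of 29 histone genes 1 was higher, Hist1h2bc (1.25 ± 0.32, adjusted p = 0.0194; 1.07, adjusted p = 0.403).

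**Figure D5:**
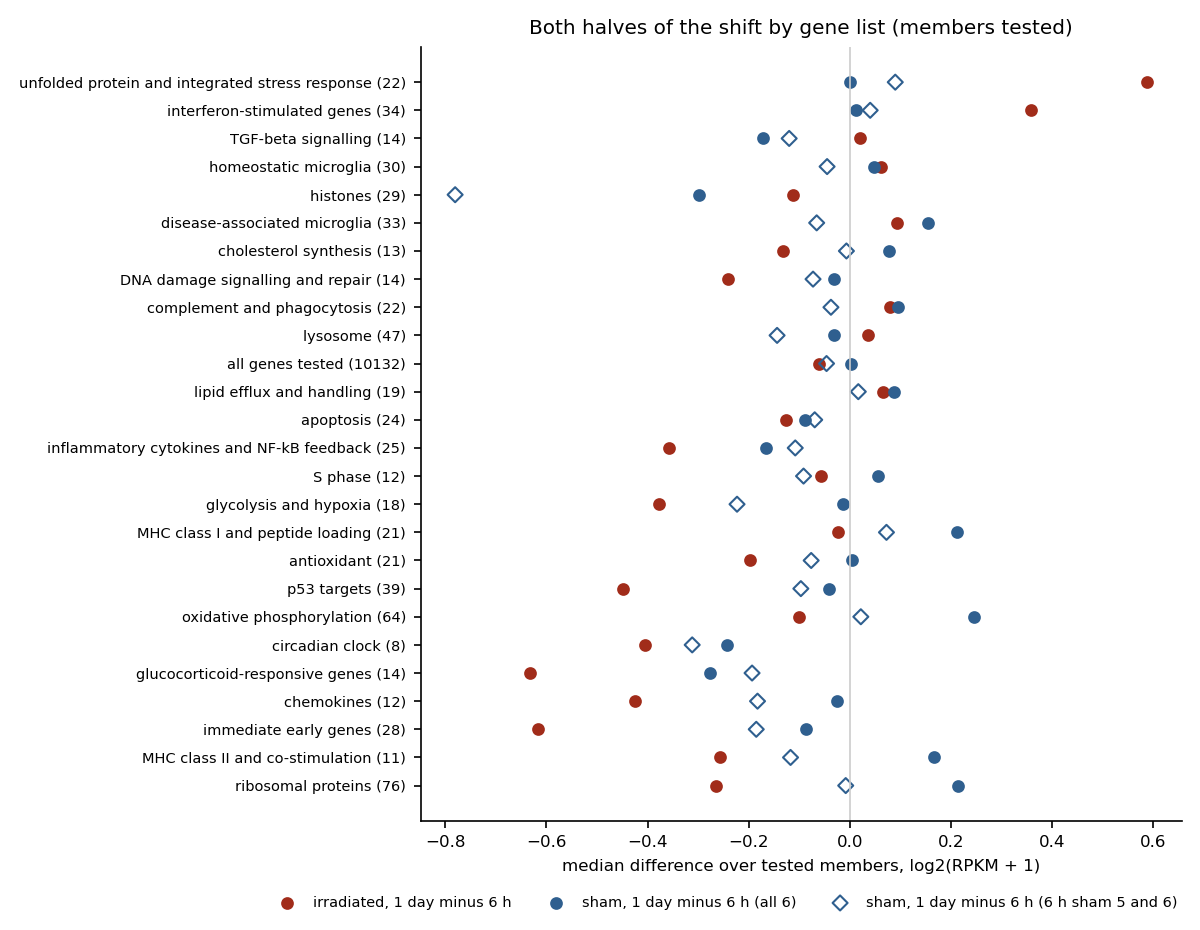
Median change from 6 h to 1 day over the tested members of each gene list (numbers in parentheses), on the log2(RPKM + 1) scale, for irradiated libraries (red), sham libraries (filled blue) and sham libraries with only libraries 5 and 6 at 6 h (open diamonds). Lists are ordered by their median shift. The unfolded protein and interferon lists lie to the right on the irradiated side (0.59 and 0.36) with sham medians near 0, and the ribosomal protein list has medians of -0.27 in irradiated and 0.21 in sham libraries, the latter -0.01 with libraries 5 and 6.

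Several of the largest shifts by size were called with all sham libraries and not with sham 6 h libraries 5 and 6 only. Among the 10 largest falls above the level set for naming, these were 9, Gdf15 being the exception. Oxld1 had the largest, -3.90 ± 0.80 (adjusted p = 0.00261), or -3.29 (adjusted p = 0.228), from low and scattered levels: 0, 1.46 and 2.88 RPKM in the sham 6 h and 5.0, 7.95 and 40.5 in the irradiated 6 h libraries. At 1 day Oxld1 had 0, 3.99 and 35.2 RPKM in the sham and 0.375, 1.21 and 2.14 in the irradiated libraries. Tnfrsf12a, the receptor Fn14 of the cytokine TWEAK, had 0.682, 1.98 and 12.8 RPKM in the sham 6 h and 17.2, 31.2 and 39.2 in the irradiated 6 h libraries. At 1 day Tnfrsf12a had 0.872, 5.19 and 7.42 RPKM in the sham and 2.71, 6.05 and 9.64 in the irradiated libraries. Its irradiated 6 h libraries stood above all others, but sham 6 h libraries 5 and 6 were at 6.55 and 12.8 and libraries 1 to 4 at 0.682 to 2.42, and the shift was -2.50 ± 0.66 (adjusted p = 0.0214) or -1.10 (adjusted p = 0.791). The small heat shock protein Hspb1 (-2.52 ± 0.72; -1.29), the mitochondrial import protein Timm13 (-2.24 ± 0.65; -0.58) and RP23-292C5.8 (-2.38 ± 0.59; -0.94), a gene that shares positions with Slc6a6, made up the rest with H2-Oa, Dcxr, Mt2 and Cd74. Among the 10 largest rises, Lgals1 and Lpl held. Spcs3, a subunit of the signal peptidase of the ER, was at 33.4 to 43.7 RPKM in sham 6 h libraries 1 to 4 and 17.7 and 20.6 in libraries 5 and 6, and its shift of 1.58 ± 0.28 (adjusted p = 0.000681) became 0.94 (adjusted p = 0.3). Rpl22l1 (1.52 ± 0.37; 1.15), the splicing regulator Hnrnpdl (1.25 ± 0.24; 0.76), Morc3 (1.24 ± 0.26; 0.58), the chromatin remodelling subunit Smarcd2 (1.20 ± 0.32; 0.82) and the Sin3 corepressor subunit Suds3 (1.18 ± 0.30; 1.04) were not called with sham 5 and 6 only, nor were Spp1 and Abca1. In each pair of values in this paragraph the first is with all sham libraries.

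Signs of handling and of the hour were read beside these results. Of 28 immediate early genes, which respond to stress and to tissue dissociation, none was called for the shift, but 5 fell from irradiated 6 h to irradiated 1 day, Ier5, Atf3, Dusp2, Klf4 and Maff, with a median of -0.62 on that side. On the sham side 3 of the 28 fell and 1 rose, with a median of -0.09. Of all tested genes 7.05% fell on the irradiated side, and on the sham side 5.29% fell and 5.66% rose. Fos was at 385 to 982 RPKM in sham 6 h, 249 to 609 in irradiated 6 h, 171 to 331 in sham 1 day and 106 to 392 in irradiated 1 day libraries, and Rhob shifted by -0.09 ± 0.21. Of 8 clock genes 3 fell on the irradiated side (Per1, Tef and Ciart) and 2 on the sham side, with 0 called for the shift, and the clock gene Bhlhe41 shifted by 0.24 ± 0.16. Of 14 glucocorticoid-responsive genes 5 fell on the irradiated side and 2 on the sham side, and 1, Mt2, was lower for the shift. The part of handling and of the hour in the shift was not tested.

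Markers of other cell types were summed in each library. Among all tested genes the shift was higher for 1.71% and lower for 2.67%, and 4.44% rose on the irradiated side. Markers of microglia, Cx3cr1, P2ry12 and Tmem119, were each at 1797 to 7285 RPM in every library. Of 20 neuron markers none passed the filter and their summed level was at most 39.7 RPM in any library. The neutrophil genes S100a8 and S100a9 had no reads in most libraries and at most 0.964 RPM. Monocyte and neutrophil markers, 3 of 21 tested, summed to 69.7 to 130.1 RPM in sham 6 h, 66.3 to 87.7 in irradiated 6 h, 39.7 to 182 in sham 1 day and 43.9 to 136.0 in irradiated 1 day libraries, with 1 day medians of 59.5 in sham and 107.5 in irradiated libraries. The monocyte gene Ccr2 had reads in all 24 libraries, and Plac8, named after its values were seen, rose on the irradiated side (0.92, adjusted p = 0.0025) and was higher in irradiated than sham 1 day libraries (0.79, adjusted p = 0.0156). Oligodendrocyte lineage markers, 5 of 16 tested, summed to 141 to 177 RPM in sham 6 h libraries 1 to 4, 440 and 455 in libraries 5 and 6, 322 to 427 in irradiated 6 h, 399 to 479 in sham 1 day and 367 to 478 in irradiated 1 day libraries. One of them, the transferrin gene Trf, was lower (-1.24 ± 0.36, adjusted p = 0.04), and was 0.15 (adjusted p = 0.962) with sham 5 and 6 only. Erythrocyte markers, 4 of 9 tested, summed to 7.98 to 52.0 RPM in sham 6 h, 16.8 to 37.8 in irradiated 6 h, 23.9 to 68.4 in sham 1 day and 28.7 to 225 in irradiated 1 day libraries, and 3 of the 4 rose on the irradiated side, Hbb-bs, Hba-a1 and Hba-a2, while Hbb-bs shifted by 0.53 ± 0.99. Of 4 tested markers of perivascular macrophages 1 was higher, the mannose receptor Mrc1 (0.51 ± 0.15, adjusted p = 0.0356; 0.39, adjusted p = 0.648 with sham 5 and 6 only). None of the 4 was called without sham 1 day library 6. The 1 tested marker of neural progenitors, the intermediate filament gene Nes, was lower (-1.22 ± 0.33, adjusted p = 0.0242; -1.56, adjusted p = 0.0576), at 3.8 to 7.37 RPKM in irradiated 6 h libraries and at most 3.19 in the others, while its list summed to 36.1 to 70.7 RPM in irradiated 6 h libraries and at most 31.1 in the others. Astrocyte markers summed to 315 to 373 RPM in sham 6 h, 386 to 536 in irradiated 6 h, 232 to 351 in sham 1 day and 261 to 487 in irradiated 1 day libraries. Perivascular macrophage markers summed to 525 to 1068 and lymphocyte markers to 416 to 945 over all 24 libraries. None of the 3 tested astrocyte markers (the glutamate transporter Slc1a3 -0.11 ± 0.19), 2 endothelial and mural markers (Cldn5 0.20 ± 0.58), 3 monocyte and neutrophil markers (Nr4a1 0.60 ± 0.56) and 3 lymphocyte markers (Ighm -0.09 ± 0.22) was called. The part of these cells in the shifts above was not tested.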

How the data were processed

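Per the labels, hippocampal cells sorted on Cx3cr1 gave 1 library per animal, made with a QIAseq FX single cell kit. The submitters' processing notes name featureCounts 1.5.1, STAR 2.6.1d, bcl2fastq 2.20.0, FastQC 0.11.8 and the build GRCm38 (mm10); the annotation and strand setting are not given in the sources used here. The deposited values are RPKM computed by the authors, so a count model was not the main test.

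Whole reads were recovered from the deposited RPKM: 100% of 719081 values above 0 came out whole within 0.001 reads. Only 2.05% of these had been divided by their own library's total, and deposited over recomputed values ran from 0.436 to 3.11 (5th to 95th percentile), so RPKM was recomputed with each library's own total. Genes with RPKM of at least 1 in at least 6 libraries were kept. limma 3.58.1 (R 4.3.3; trend, robust) was fitted to log2(RPKM + 1) of all 8 groups, with 40 residual degrees of freedom, Benjamini-Hochberg adjustment over all tested genes and a threshold of 0.05; it was tested on simulated data. Replicates are separate animals, per the labels. Intervals on a count of 0 use 3 reads.

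Named genes were the 10 largest shifts each way, the genes called in all 3 fits, the leading genes of each list and a panel, above a set level; others are marked, and a few genes are not reported here. Members and lists were chosen with earlier results of these data known. Same-numbered animals of the 2 treatments did not pair: deviations correlated at -0.107 to 0.079, and 2 of 12 libraries correlated best with their own number. Alternatives covered the sham libraries, each library left out, scaling, pseudocount, filter, limma-voom, GC content with span, and the deposited values.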

Additional observations from a re-analysis of the deposited data

Results flagged for a closer look

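The effect of irradiation differed between 6 h and 1 day, by the limma test of the difference itself, for 79 of the 111 genes named. The rule for naming genes favoured large and called shifts, and among all 10132 tested genes the shift was higher for 1.71% and lower for 2.67%. Values are the 1 day effect minus the 6 h effect on the log2(RPKM + 1) scale, and those lost against sham 6 h libraries 5 and 6 are counted with the processing alternatives. The falls began with Oxld1 (-3.9), Gdf15 (-3.4), H2-Oa (-3.12), Dcxr (-2.85), Hspb1 (-2.52), Tnfrsf12a (-2.5), Mt2 (-2.47), RP23-292C5.8 (-2.38) and Cd74 (-2.29). They went on with Timm13 (-2.24), Rps9 (-1.97), Rpl32 (-1.71), Gtse1 (-1.63), Hmox1 (-1.6), Uqcr11 (-1.56), Glipr2 (-1.55), Selplg (-1.48) and Abhd4 (-1.43). Next came Tnfaip2 (-1.42), Matn1 (-1.3), Rela (-1.29), Trf (-1.24), Cep170b (-1.22), Nes (-1.22), Naa40 (-1.17), Plk2 (-1.13) and Sparc (-1.12). Smaller falls were C1qb (-1.1), Tyrobp (-1.07), Crip2 (-1.06), Phlda3 (-1.05), Cox7a2l (-1.04), Sulf2 (-1.0), Perp (-0.98), Glipr1 (-0.96) and Gpx1 (-0.95). After these stood Cybb (-0.93), Rps3a1 (-0.9), Bcl2l1 (-0.86), Ldha (-0.81), Flcn (-0.81), Ccl9 (-0.78), D630023F18Rik (-0.76), Fam198b (-0.73) and Fam46c (-0.71). The smallest falls were Ccng1 (-0.68) and Siglech (-0.58). The rises began with Lgals1 (1.93), Lpl (1.81), Spcs3 (1.58), Rpl22l1 (1.52), Spp1 (1.47), Ifit2 (1.31), Hnrnpdl (1.25), Hist1h2bc (1.25) and Morc3 (1.24). Next among the rises were Smarcd2 (1.2), Abca1 (1.19), Suds3 (1.18), Hsp90b1 (1.15), Hspa5 (1.14), Dhx58 (1.13), Psat1 (1.08), Gpnmb (1.02) and Ctsc (0.96). Then followed Manf (0.95), Cpd (0.94), Calr (0.89), Cd84 (0.89), Trim30a (0.89), Skil (0.85), Xbp1 (0.84), Pdia6 (0.83) and Grn (0.82). The smallest rises were Tgfbr1 (0.77), Abca9 (0.71), Ctsb (0.67), Ptgs1 (0.66) and Mrc1 (0.51).

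For each gene named, each group of 6 libraries was also checked for a library that stood far from the other 5. The gap to the nearest library over the group's range passed the 95% critical value of 0.625 in 36 of 444 groups, and chance alone gives about 1 in 20. Values are RPKM, with the range of the other 5 libraries in parentheses. In sham 1 day library 6 these were Cd74 1.94 (2.98 to 3.34), Spcs3 6.56 (16.7 to 20.2), Smarcd2 5.24 (13 to 17.5), Abca1 3.53 (4.19 to 4.58) and Glipr2 0.525 (0 to 0.131). The same library had Calr 86.3 (110.2 to 121), Rps9 51 (80.7 to 93.6), Trf 7.33 (8.74 to 9.46), Ighm 84.7 (138 to 184) and Rsad2 3.33 (0.254 to 0.797). The same library had Irf9 45.9 (19.9 to 24.7) and P4hb 71.3 (83 to 90.5). In sham 1 day library 4 these were Spp1 2.53 (0.392 to 0.961), Cd84 4.03 (4.55 to 4.88), Tgfbr1 9.71 (15.5 to 19.2) and Crip2 0.154 (0 to 0). In irradiated 6 h library 5 these were Glipr2 7.21 (4.15 to 4.79), Flcn 17 (20.4 to 22.4) and Nr4a1 1.38 (3.4 to 5.22). In irradiated 1 day library 5 these were Hist1h2bc 7.15 (2.04 to 2.97) and Bhlhe41 15.7 (20.9 to 22.8). In sham 6 h library 1 these were Rhob 1391 (1011 to 1084) and Vcam1 2.11 (0.237 to 0.554). In sham 6 h library 4 these were Tnf 0.52 (2.85 to 4.88) and Fam198b 0.133 (0 to 0.0168). Irradiated 1 day library 2 had Nes 0.0925 (0.679 to 1.16). Irradiated 1 day library 3 had Pdia6 21.4 (14.9 to 17). Irradiated 1 day library 6 had Lgals1 3.83 (6.74 to 8.86). Irradiated 6 h library 3 had Selplg 160.3 (131 to 139). Irradiated 6 h library 4 had Cybb 1.0 (1.53 to 1.87). Irradiated 6 h library 6 had Cenpa 0.939 (0.203 to 0.419). Sham 1 day library 1 had Ccl2 16.1 (7.42 to 9.97). Sham 1 day library 2 had Cldn5 1.05 (0 to 0.287). Sham 6 h library 2 had Suds3 12.1 (3.22 to 4.11). Sham 6 h library 3 had Rsad2 3.72 (0.299 to 0.787). Sham 6 h library 5 had Gpnmb 0.17 (0 to 0.0545).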

How the results depend on the processing

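With sham 6 h libraries 5 and 6 only, the shift had 16 higher and 16 lower genes, the sham change 0 and 0, and the 6 h effect 158 and 54. With sham 6 h libraries 1 to 4 only, the shift had 559 and 869 and the sham change 1254 and 1080. With sham 5 and 6 only and sham 1 day library 6 left out, these were 20 and 15 for the shift, 0 and 0 for the sham change, 174 and 63 for the 6 h effect, and 233 lower for the 1 day effect. Fitting only the 24 libraries gave 82 and 133 for the shift and 352 lower for the sham change. limma-voom gave 429 lower for the shift and 242 lower for the 1 day effect, RPM 243 lower for the latter, and no filter 356 higher for the sham change. Removing the trend on GC content and span gave 55 and 146 for the shift, 275 lower for the sham change and 367 lower for the 6 h effect. The values as deposited gave 0 and 0 for the shift by limma (297 at an unadjusted p under 0.05), 0 and 3 for the sham change, 56 and 7 for the 6 h effect, 39 and 0 for the 1 day effect, and 15 and 17 on the irradiated side.

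Leaving out 1 library gave 110 to 317 higher and 172 to 499 lower for the shift, lowest without sham 6 h library 1 (110 higher) and library 4 (172 lower, 174 without library 1) and highest without libraries 5 (317 and 484) and 6 (304 and 499). It gave 324 to 490 and 446 to 786 on the irradiated side, 297 to 871 and 295 to 777 for the sham change, 1001 to 1571 and 615 to 970 for the 6 h effect, and 251 to 306 and 89 to 193 for the 1 day effect, where irradiated 1 day libraries 2 and 3 gave the lowest (89 and 90). With only sham 6 h library 5 or 6, assumed to vary like the other groups, the shift had 4 to 5 and 2 to 4, the sham change 0 and 2 to 3, and the 6 h effect 74 to 82 and 19 to 21.

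With the replicate number as a block the shift had 127 higher and 206 lower genes; the numbers did not pair the samples, and the sham and irradiated changes over time lie between blocks, so no blocked value exists for them. Of the 111 genes named, 48 lost their call in the same direction, 3 changed sign and 4 gained a call with sham 5 and 6 only. C1qb changed sign to 0.28 with sham 5 and 6 only, 0.26 with sham 1 day library 6 also left out and 0.27 and 0.29 with 1 of those sham libraries. Trf did to 0.15, 0.11, 0.27 and 0.037, and Skil to -0.011, -0.084, -0.011 and -0.011. Uqcr11 was 0.033 with sham 6 h library 5 as the only 6 h sham, and Siglech 0.026 with the values as deposited. The cause of these differences was not tested. Depth limits sham 1 day library 6 most, with 175382 reads on genes.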
